A study of Mus musculus with 63 samples.

Results

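Hearts of transgenic mice that made a mutant form of human mitofusin 2 (Mfn2AA) were compared at 5 weeks of age with hearts that made the normal human protein (Mfn2wt). The comparison rests on 4 Mfn2AA and 4 Mfn2wt libraries, which are all the libraries of these genotypes at that age and 8 of the 63 in the series. Mfn2AA hearts carried human Mfn2 with the substitutions T111A and S442A. The 2 control groups of the same age were 3 hearts with the tet-off driver alone (tetoff) and 4 nontransgenic hearts (ntg). All mice were of the FVB/N strain. RNA came from the flash-frozen ventricular apex and was sequenced as polyadenylated RNA, single-end and without strand information. The labels do not name the promoter that drives the transgenes, do not say whether Mfn2wt hearts also carried the driver, and do not give the sex of the mice. The same 2 genotypes at postnatal day 21 (P21), with 6 libraries each, were used to ask whether a difference was already present at the younger age.

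Mitofusin 2 sits in the outer membrane of mitochondria, where it tethers and fuses them. When a mitochondrion loses its membrane potential the kinase PINK1 accumulates on it and phosphorylates mitofusin 2, which then serves as a receptor for the ubiquitin ligase Parkin, and the marked mitochondrion is removed by mitophagy. The changed threonine and serine are residues that PINK1 phosphorylates, so the Mfn2AA protein cannot be marked at them. In the first weeks after birth the mouse heart exchanges its fetal mitochondria for adult ones and turns from carbohydrates to fatty acids as its main fuel, and the series asks what Parkin-mediated mitophagy does in that exchange.

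Total counts were 16663207 to 23732780 reads in the 4 Mfn2AA libraries. The Mfn2wt libraries held 7396727, 23434834, 7590577 and 10217586 reads, so that 3 of the 4 were shallower than every Mfn2AA library. The ribosomal repeat Rn45s took 5.81% ± 2.06 of the counts in Mfn2AA libraries and 16.7% ± 12.8 in Mfn2wt libraries (SD, n = 4 each), with 34.4% in the first Mfn2wt library. Xist had over 500 reads in 2 of the 4 Mfn2AA and 1 of the 4 Mfn2wt libraries, and the part of sex in the results was not tested. The 4 values of a group are given in 1 fixed order below, and libraries are named by their place in it, so that the second Mfn2wt library is the deepest of its group. The titles carry identifying numbers whose meaning the labels do not give, and none of the leading ones is shared between Mfn2AA and Mfn2wt, so genotype and whatever these numbers stand for cannot be told apart. The first Mfn2AA library shares its leading number with 1 ntg library and the other 3 Mfn2AA libraries share theirs with all 3 tetoff libraries, while no Mfn2wt library shares one with a control. The labels do not say whether libraries of a group came from separate litters, and p-values measure the spread between these libraries.

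The transgene served as the check of the labels. Its FPKM (fragments scaled to transcript length and library depth, as deposited) was 336, 613, 851 and 360 in Mfn2AA hearts, against 1230, 1740, 1400 and 1500 in Mfn2wt hearts and 3.96 to 190 in the 7 control libraries. The value of 190 belongs to 1 tetoff library, which its label gives as driver alone, and the other 6 controls were at 3.96 to 23.7. Counts of calls that use tetoff libraries are therefore also given without it for all genes and for several lists, a choice made after seeing the data. Values of single genes include it. The 2 transgenic groups did not overlap, and a dose difference between the lines cannot be told apart from the 2 substitutions in any result below. Endogenous Mfn2 (chr4:147873595-147904819, mm10, minus strand) had 628, 827, 722 and 716 CPM (counts scaled to the depth of each library) in Mfn2AA libraries and 1290, 1140, 1250 and 1170 CPM in Mfn2wt libraries. All 4 Mfn2AA values lay lower, but on the deposited FPKM the groups overlapped, at 166 to 227 in Mfn2AA and 213 to 302 in Mfn2wt libraries (log2 difference -0.35, two-sided exact permutation p = 0.0857). Mfn2 FPKM was 246 to 287 in tetoff and 239 to 276 in ntg libraries, within the Mfn2wt range. Reads of the human transcript can align to the mouse gene, so the difference between the transgenic groups is uncertain. The part of such reads in it was not tested.

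A gene was called at an adjusted p under 0.05 in edgeR's quasi-likelihood test. Between Mfn2AA and Mfn2wt hearts 5257 of 13661 tested genes were called, 38.5%, with 2774 higher (20.3%) and 2483 lower (18.2%) in Mfn2AA. A change of at least 2-fold was reached by 2317 of them (17%). The median log2 fold change over all tested genes was 0.03. With only the deepest Mfn2wt library kept, 1555 genes were called, 726 higher and 829 lower, on the assumption that this lone library varies like the other groups. On the deposited FPKM values the median log2 fold change of all genes was 0.327, and 85.2% of the called genes were higher, beside 52.8% in counts and 36.9% on FPKM centred at the median of all genes. Genes were grouped into 32 pathway lists and 13 cell type lists, whose called shares ranged from none of 3 erythroid markers to all 13 mitochondrially encoded genes.

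**Figure D1:**
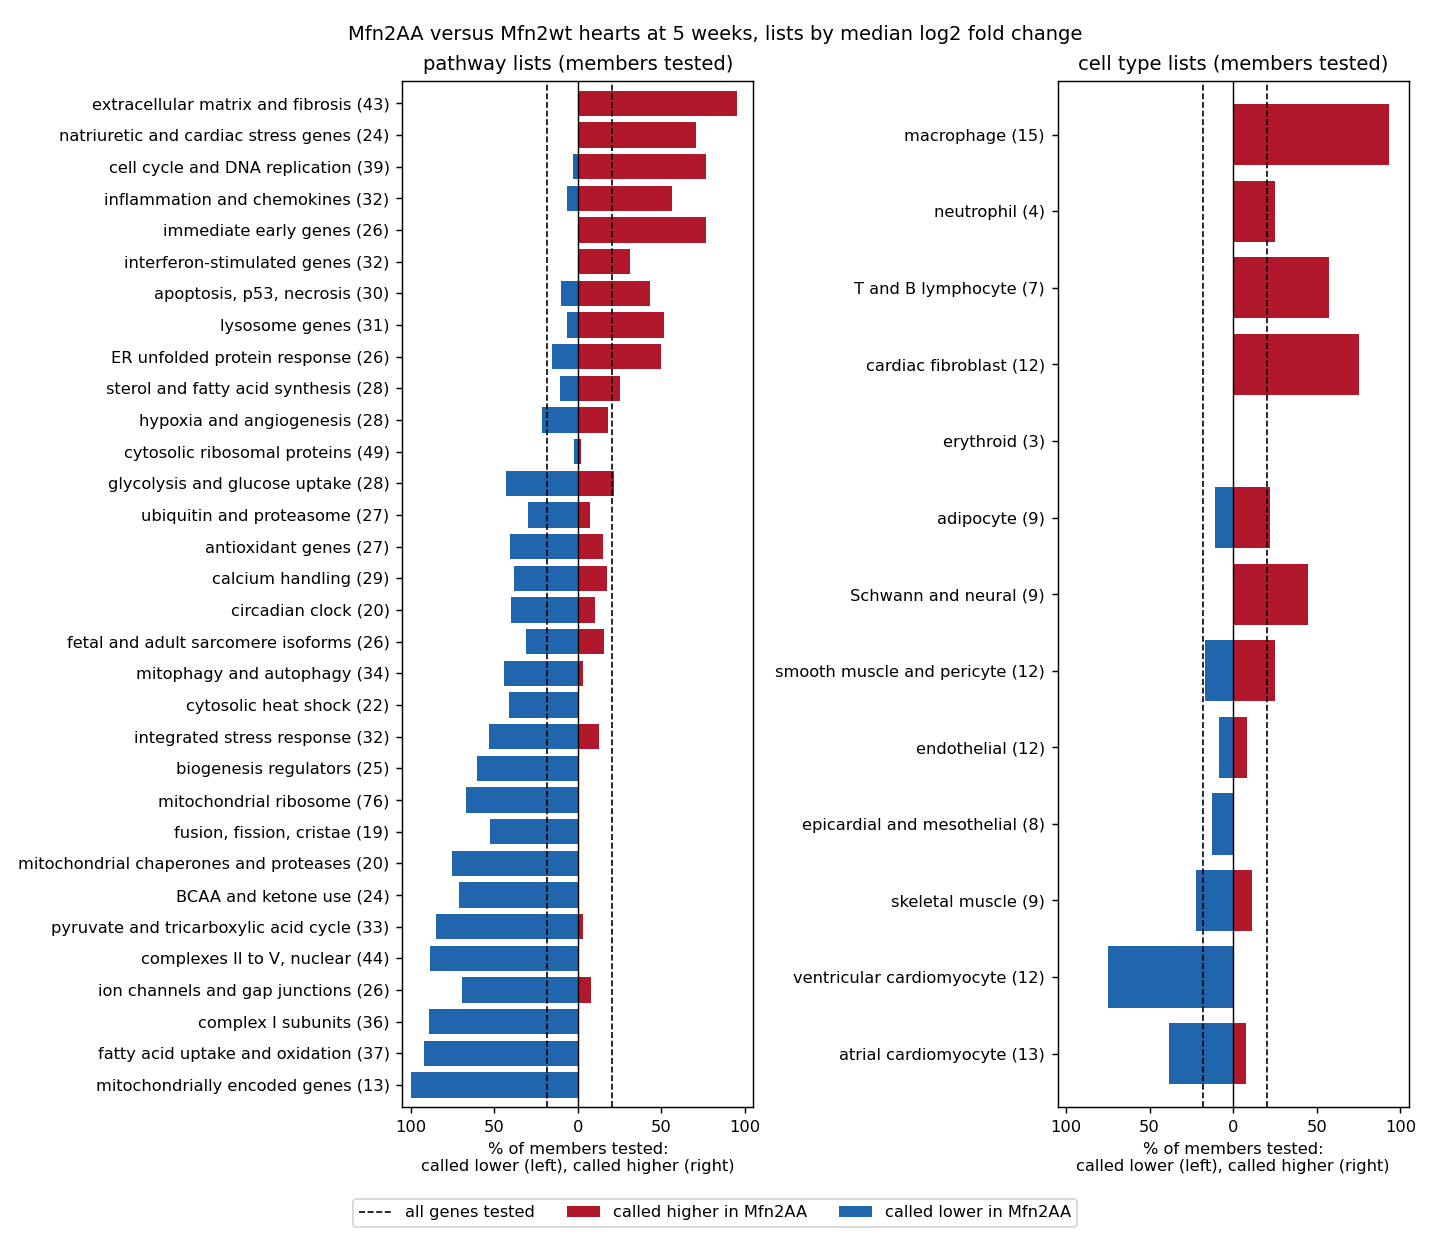
Share of the tested members of each gene list called higher (to the right) or lower (to the left) in Mfn2AA than in Mfn2wt hearts at 5 weeks (percent of members, edgeR adjusted p under 0.05), with dashed lines at the shares over all tested genes. Matrix genes lie far to the right, fatty acid oxidation and respiratory genes far to the left, and cytosolic ribosomal proteins show 1 member called on each side.

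Genes of the extracellular matrix and fibrosis were the list with the largest median change. Of 43 members 41 were higher in Mfn2AA hearts and none was lower, with a median log2 fold change of 2.49, and 31 rose and none fell with only the deepest Mfn2wt library kept. In bulk RNA more cells of a type and more RNA per cell cannot be told apart, here or in any list below. Postn (periostin, a matrix protein of activated fibroblasts; chr3:54361107-54391041, mm10, plus strand) had 91.6, 306, 958 and 921 CPM in Mfn2AA libraries, against 11.5, 51.9, 17.4 and 16.5 CPM in Mfn2wt libraries. Every Mfn2AA library was above every Mfn2wt library, and the Mfn2AA values spread widely among themselves, with the first Mfn2AA library the lowest. The log2 fold change was 4.50 ± 0.73 (SE; adjusted p = 0.000215). Ltbp2, a latent TGF-beta binding protein of elastic fibres, had 251, 240, 201 and 322 CPM in Mfn2AA and 8.64, 23.4, 5.79 and 8.02 CPM in Mfn2wt libraries, a log2 fold change of 4.38 ± 0.49 (adjusted p = 1.03e-05).

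Collagens and proteins of injured matrix rose together. Tnc (tenascin C, a matrix protein of injured tissue) rose by 3.83 ± 0.53 on the log2 scale and Col12a1, a collagen that binds to the surface of fibrils, by 3.80 ± 0.43. Col1a1, the main chain of type I collagen, had 7940, 3490, 2530 and 3200 CPM in Mfn2AA libraries, against 479, 702, 425 and 533 CPM in Mfn2wt libraries. All Mfn2AA values were higher, with the first Mfn2AA library more than 2-fold above the other 3, and the log2 fold change was 3.00 ± 0.37 (adjusted p = 2.29e-05). Ctgf (Ccn2), a secreted TGF-beta target chosen after its values were seen, had 1380, 776, 798 and 1660 CPM in Mfn2AA and 172, 205, 121 and 126 CPM in Mfn2wt libraries. The 2 uncalled members were Dcn (decorin, a collagen-binding proteoglycan; 0.85 ± 0.56, adjusted p = 0.252) and Timp3, a protease inhibitor (-0.13 ± 0.21, adjusted p = 0.673).

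Markers of cardiac fibroblasts moved beside the matrix genes. Of 12, 9 rose and none fell (median 1.19; 5 rose with only the deepest Mfn2wt library kept), and their summed level was 11170 to 17630 CPM in Mfn2AA libraries, against 3827 to 4896 CPM in Mfn2wt libraries. Without overlap between the groups 8 markers were higher and 1, not called, was lower. Of all tested genes 17.7% were higher and 16.5% lower without overlap. No marker of the list was at 0 in either group, and 5 of the 12 are also on the matrix list. Mfap5, a microfibril protein not on the matrix list, had 76.2, 106, 156 and 171 CPM in Mfn2AA and 16.3, 20.1, 12.8 and 21.1 CPM in Mfn2wt libraries (log2 fold change 2.84 ± 0.28). The part of fibroblast number in the matrix result was not tested.

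**Figure D2:**
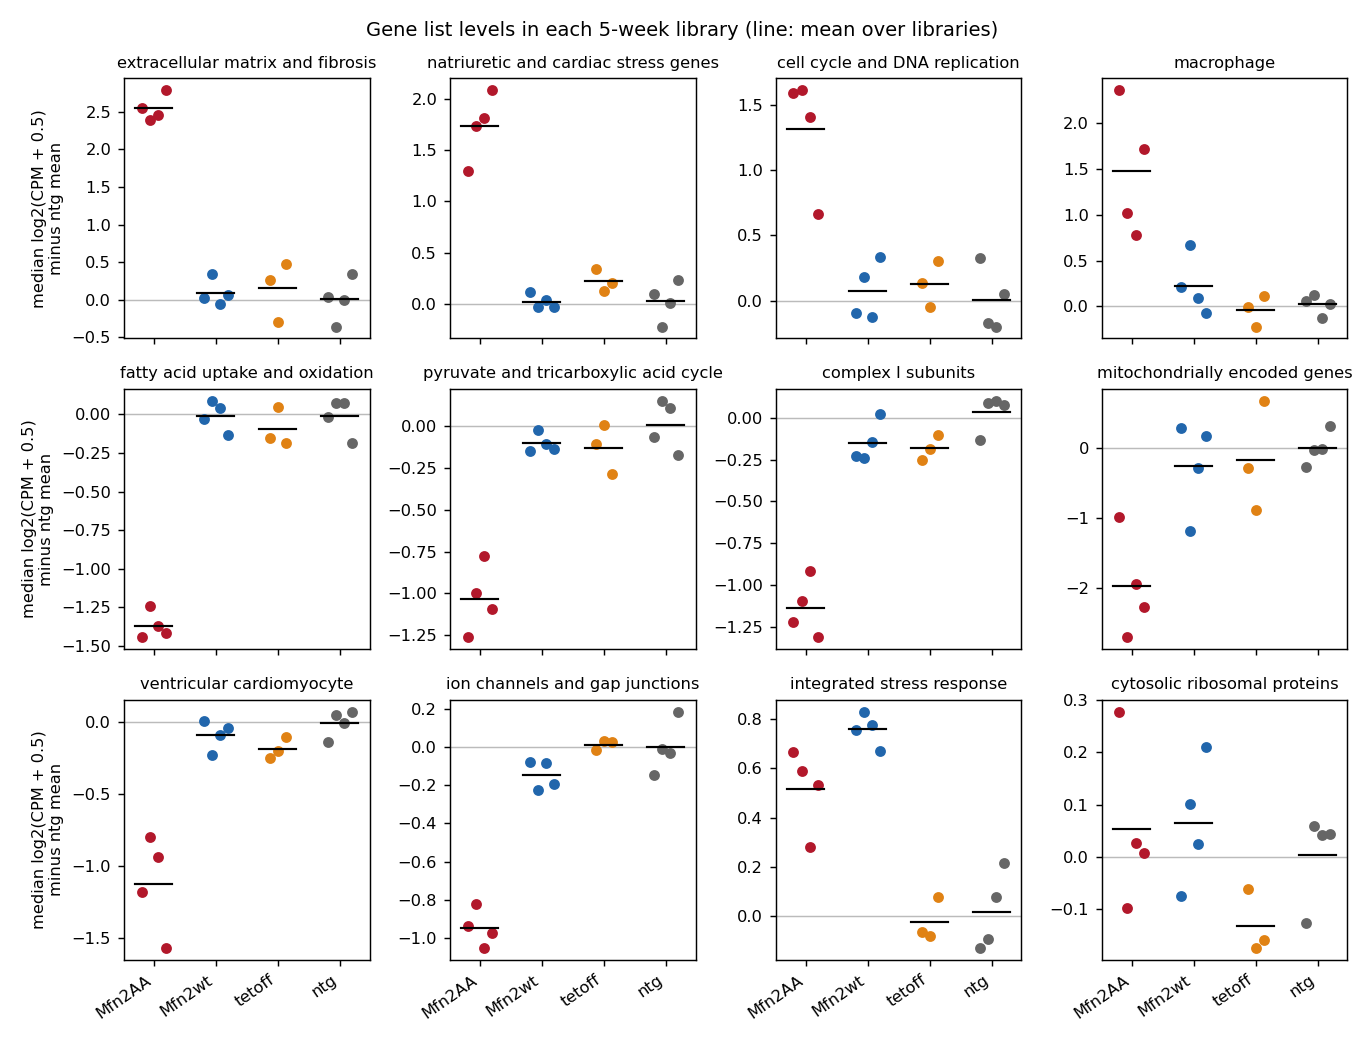
Median log2 level of the members of each gene list in every 5-week library, relative to the mean of the ntg libraries (levels are log2 of CPM plus 0.5, points are libraries, lines are group means). The 4 Mfn2AA libraries stand apart from the other 3 groups in matrix and fatty acid oxidation genes, while both transgenic groups lie above the control groups in the integrated stress response list.

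Natriuretic peptides and other genes of the stressed heart rose. Of 24 members 17 were higher and none was lower in Mfn2AA hearts (median 1.74), and 11 rose and 1 fell with only the deepest Mfn2wt library kept. Nppa (atrial natriuretic peptide; chr4:148000746-148002067, mm10, plus strand), reactivated in ventricles under load, had 6540, 6130, 7960 and 11600 CPM in Mfn2AA libraries, against 1240, 1180, 1240 and 1960 CPM in Mfn2wt libraries. The groups did not overlap, and the log2 fold change was 2.52 ± 0.41 (adjusted p = 0.000225). Nppa was higher in Mfn2wt than in ntg hearts as well (2.52, adjusted p = 0.0101), and it was higher in Mfn2AA than in tetoff hearts by 4.61. Nppb (brain natriuretic peptide), chosen after its values were seen, had 299, 475, 560 and 629 CPM in Mfn2AA and 94.5, 59.6, 87.9 and 82.4 CPM in Mfn2wt libraries. Both peptide genes were thus higher in every Mfn2AA library.

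Further members of the list belong to metabolism and signalling. Nmrk2, a nicotinamide riboside kinase of the NAD salvage pathway, had 97.6, 245, 192 and 198 CPM in Mfn2AA libraries, against 12.2, 15.9, 15 and 12.7 CPM in Mfn2wt libraries (log2 fold change 3.70 ± 0.24, adjusted p = 2.75e-07). Uchl1, a deubiquitinase, rose by 3.35 ± 0.33. The classic myosin and actin markers of the list were not called. Myh7, the fetal ventricular myosin heavy chain, had 5650, 7210, 3330 and 8090 CPM in Mfn2AA and 6340, 4420, 5220 and 4610 CPM in Mfn2wt libraries, and the groups overlapped (0.24 ± 0.24, adjusted p = 0.469; -0.65 by limma on centred FPKM, adjusted p = 0.0418). Acta1, skeletal actin, differed by 0.48 ± 0.37 (adjusted p = 0.341).

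Genes of fatty acid uptake and oxidation fell together. Of 37 members 34 were lower in Mfn2AA hearts, 30 of them by at least 2-fold, and none was higher, with a median log2 fold change of -1.35. With only the deepest Mfn2wt library kept 29 fell and none rose. Cpt2, the inner membrane carnitine palmitoyltransferase (chr4:107903982-107923589, mm10, minus strand), had 35.7, 54, 61 and 44.9 CPM in Mfn2AA libraries, against 177, 181, 196 and 154 CPM in Mfn2wt libraries. Each Mfn2AA library lay far below each Mfn2wt library (log2 fold change -1.86 ± 0.15, adjusted p = 7.03e-07). Acot2, a thioesterase of the mitochondrial matrix, had 28.4, 23.1, 16.2 and 16.3 CPM in Mfn2AA and 240, 127, 209 and 174 CPM in Mfn2wt libraries (-3.16 ± 0.29). Its cytosolic relative Acot1 fell by 2.67 ± 0.30 on the log2 scale, although reads of such close paralogs may be split between them. Ucp3, an uncoupling protein of muscle mitochondria, fell by 2.87 ± 0.40. The uncalled members included Ucp2 (1.04 ± 0.47, adjusted p = 0.0955), for which the first Mfn2AA library alone held 1160 CPM.

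Regulators of mitochondrial biogenesis were lower in the same hearts. Of 25 members 15 fell and none rose (median -0.63), and 6 fell with only the deepest Mfn2wt library kept. Ppara, the fatty acid sensing nuclear receptor, had 31.8, 43, 45.6 and 37 CPM in Mfn2AA libraries, against 104, 79.5, 88.7 and 100 CPM in Mfn2wt libraries, and the groups did not overlap (-1.24 ± 0.14, adjusted p = 1.03e-05). Rxrg, a retinoid X receptor that partners such receptors, fell by 1.40 ± 0.12, and Esrrg, an estrogen-related receptor that drives adult oxidative genes, by 1.18 ± 0.11. The coactivator gene Ppargc1a (-1.06 ± 0.23) and Esrra (-0.96 ± 0.16), both chosen after their values were seen, were also called. An element of estrogen-related receptors, TCAAGGTCA, was searched for on either strand in promoters of oxidative genes. None of 37 promoters of fatty acid genes and none of 35 of complex I held it. It was in 1 of 38 promoters of pyruvate use and the cycle and 2 of 37 of complexes II to V. Sdhd is in both these lists. Of all promoters 139 of 32851 held it (0.423%).

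The tricarboxylic acid cycle and the respiratory chain followed the oxidation genes. Among 33 genes of pyruvate use and the cycle 28 fell and 1 rose (median -0.89), and 24 fell with only the deepest Mfn2wt library kept. Pdk2, a kinase that restrains pyruvate dehydrogenase, fell by 1.33 ± 0.15, and Idh2, the mitochondrial isocitrate dehydrogenase, by 1.21 ± 0.18. The 1 gene that rose was Pdk3, another such kinase, at 1.43, 0.835, 1.24 and 1.63 CPM in Mfn2AA libraries, against 0, 0.515, 0.313 and 0.601 CPM in Mfn2wt libraries, all close to the lowest levels measured. Of 36 subunits of complex I 32 fell and none rose (median -0.94), and of 44 nuclear genes of complexes II to V 39 fell and none rose (median -0.90). With only the deepest Mfn2wt library kept 20 of the 36 and 25 of the 44 fell.

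Small accessory subunits were among the larger changes in the respiratory chain. Ndufs6, a subunit of complex I, had 468, 352, 434 and 318 CPM in Mfn2AA libraries, against 1100, 908, 1100 and 1720 CPM in Mfn2wt libraries (-1.62 ± 0.22, adjusted p = 5.58e-05). Cox6a2, the heart form of a cytochrome oxidase subunit, had 1860, 1440, 1590 and 997 CPM in Mfn2AA and 6100, 2980, 4510 and 5230 CPM in Mfn2wt libraries (-1.68 ± 0.31). The groups overlapped for neither gene. Cox7a1 (-1.51 ± 0.22) and Cox8b (-1.41 ± 0.26), further muscle forms of the same enzyme, fell as well. The mitochondrial ribosome, which translates the mitochondrial messages, had 51 of 76 members lower and none higher (median -0.64; 17 lower with only the deepest Mfn2wt library kept), among them Mrpl42 (-1.17 ± 0.15).

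Transcripts of the mitochondrial genome itself were lower but less evenly so. All 13 were called lower (median -1.77), yet only 3 of the 13 had groups that did not overlap, beside 16.5% of all tested genes lower without overlap. Their sum took 2.64% ± 1.01 of the counts in Mfn2AA libraries and 5.55% ± 1.44 in Mfn2wt libraries (SD, n = 4 each; two-sided exact permutation p = 0.0286, the smallest 4 against 4 can give, adjusted over 4 measures 0.0572). mt-Nd2, a complex I subunit, had 3540, 1070, 1520 and 1260 CPM in Mfn2AA and 9140, 3090, 6210 and 8520 CPM in Mfn2wt libraries. The first Mfn2AA library was the highest of its group and the second Mfn2wt library the lowest of its own, and these 2 crossed. With that Mfn2wt library kept alone 1 of the 13 was called, and the median was -0.71.

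Markers of ventricular cardiomyocytes moved beside the oxidative genes. Of 12, 9 fell and none rose (median -0.94; 5 fell with only the deepest Mfn2wt library kept), and their summed level was 53730 to 72430 CPM in Mfn2AA libraries, against 101900 to 122900 CPM in Mfn2wt libraries. No marker was at 0. Myh6, the adult myosin heavy chain, had 23200, 28400, 20400 and 18500 CPM in Mfn2AA and 61000, 48200, 54000 and 48700 CPM in Mfn2wt libraries (-1.22 ± 0.18, adjusted p = 7.4e-05). The defining sarcomere gene Tnnt2 had 10900, 10300, 7090 and 10800 CPM in Mfn2AA and 14000, 10100, 11700 and 12800 CPM in Mfn2wt libraries, overlapping and not called (-0.31 ± 0.19, adjusted p = 0.219), and Actc1, cardiac actin, differed by -0.33 ± 0.17 (adjusted p = 0.149). The part of the cardiomyocyte share in the fall of the oxidative genes was not tested.

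The counts of the lower lists depended on the scaling, and those of some higher lists did so as well. On FPKM without centring 27 of the 37 oxidation genes fell and 2 rose, and 15 of the 33 genes of pyruvate use and the cycle fell. In that setting 15 of the 36 complex I subunits fell (median -0.56), 19 of the 44 nuclear genes for the other complexes fell and 1 rose, and 15 of the 76 mitochondrial ribosome genes fell (median -0.20). Of the regulators of biogenesis 9 fell and 3 rose, and of the ventricular markers 4 fell. On FPKM centred at the median gene 34, 27, 32, 39, 53, 19 and 8 members of these 7 lists fell, in the same order, and none rose. Of the matrix genes 41 rose on centred FPKM (median 2.3). Fewer cell cycle, inflammation, interferon-stimulated and lymphocyte genes were called higher there than in counts, as given below.

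The genes of mitophagy fell in part. Of 34 members 15 fell and 1 rose, with a median of -0.29 that became 0.11 on FPKM without centring. In counts that is 47.1% called, beside 38.5% of all genes. With only the deepest Mfn2wt library kept 3 fell. Pink1 (chr4:138313410-138326296, mm10, minus strand), the kinase that phosphorylates mitofusin 2, had 337, 331, 242 and 216 CPM in Mfn2AA libraries, against 822, 578, 696 and 677 CPM in Mfn2wt libraries. The groups did not overlap (-1.30 ± 0.21, adjusted p = 0.00019). Park2, which encodes Parkin, had 3.04, 4.25, 3.6 and 4.19 CPM in Mfn2AA and 5.52, 4.88, 5.95 and 6.82 CPM in Mfn2wt libraries (-0.61 ± 0.19, adjusted p = 0.018), and the call was lost without the fourth Mfn2wt library (-0.52, adjusted p = 0.0678). On the deposited FPKM Park2 was at 1.1 to 1.63 in Mfn2AA and 1.25 to 2.1 in Mfn2wt libraries, overlapping, with a log2 difference of -0.13 (two-sided exact permutation p = 0.314). Rhot2, an outer membrane GTPase that links mitochondria to transport along microtubules and a Parkin substrate, fell by 1.18 ± 0.17, and the autophagy receptor gene Optn by 0.93 ± 0.17. Sqstm1, which encodes the receptor p62, was not called (0.12 ± 0.14, adjusted p = 0.544).

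Genes of mitochondrial fusion, fission and cristae had 10 of 19 members lower and none higher (median -0.65; 3 lower with only the deepest Mfn2wt library kept and 6 on FPKM without centring). Mtfp1, which promotes fission, had 35.7, 56.4, 59.6 and 30.1 CPM in Mfn2AA libraries, against 142, 113, 133 and 143 CPM in Mfn2wt libraries (-1.54 ± 0.18, adjusted p = 1.52e-05). Chchd3, a cristae organiser, fell by 1.01 ± 0.21 and the protease gene Oma1 by 0.93 ± 0.16. Mfn1, the other mitofusin, had 42.8, 79.4, 102 and 78.2 CPM in Mfn2AA and 90.4, 168, 122 and 94.7 CPM in Mfn2wt libraries, overlapping and not called (-0.65 ± 0.33, adjusted p = 0.13). Mitochondrial chaperones and proteases had 15 of 20 members lower and none higher (median -0.73; 10 lower with only the deepest Mfn2wt library kept, and 9 lower and 1 higher on FPKM without centring), among them the folding partners Hspd1 (-1.21 ± 0.17) and Hspe1 (-1.19 ± 0.22).

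Glucose use did not move in 1 direction. Of 28 members 6 rose and 12 fell, with a median of -0.07 that became 0.28 on FPKM without centring, and 1 rose and 5 fell with only the deepest Mfn2wt library kept. Slc16a3, a lactate exporter, had 76.8, 26.8, 15.2 and 37.9 CPM in Mfn2AA libraries, against 3.6, 8.41, 4.38 and 4.81 CPM in Mfn2wt libraries (2.80 ± 0.45, adjusted p = 0.0002). Pfkp, the platelet form of phosphofructokinase, rose by 1.39 ± 0.16. Pfkfb1, which sets the level of the activator of that enzyme, fell by 2.89 ± 0.23, Pygm, muscle glycogen phosphorylase, by 1.23 ± 0.15, and Ldhb, the heart lactate dehydrogenase, by 1.22 ± 0.15. The genes of branched-chain amino acid and ketone use had 17 of 24 members lower and none higher (median -0.84; 11 lower with only the deepest Mfn2wt library kept and 7 on FPKM without centring), among them Bckdhb (-1.56 ± 0.15), a subunit of the branched-chain ketoacid dehydrogenase.

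Ion channels and gap junctions had 18 of 26 members lower and 2 higher (median -0.90), and 8 fell and 1 rose with only the deepest Mfn2wt library kept. Kcnv2, a silent subunit that modifies potassium channels (chr19:27322619-27337179, mm10, plus strand), had 1.2, 1.42, 1.18 and 1.23 CPM in Mfn2AA libraries, against 17, 14.3, 13.3 and 16 CPM in Mfn2wt libraries. The 4 Mfn2AA values lay close together and far below the others (-3.58 ± 0.24, adjusted p = 2.98e-07). Scn4b, a regulatory subunit of the sodium channel, fell by 2.32 ± 0.34, Kcnj3, an acetylcholine-gated potassium channel, by 2.35 ± 0.22, and Kcnj2, which sets the resting potential of ventricular cells, by 1.54 ± 0.20. Kcnj3 is also on the list of atrial markers, of which 5 of 13 fell in the same comparison, and the part of atrial tissue in its fall was not tested.

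Calcium handling genes had 11 of 29 members lower and 5 higher, with a median of -0.21 that became 0.17 on FPKM without centring, and 6 fell and none rose with only the deepest Mfn2wt library kept. Without the fourth Mfn2wt library 3 calcium handling genes rose. Genes of the sarcoplasmic reticulum calcium store were among those that fell. Atp2a2, the pump itself, had 1790, 2580, 3110 and 2170 CPM in Mfn2AA libraries, against 6330, 7830, 6470 and 6000 CPM in Mfn2wt libraries (-1.46 ± 0.18, adjusted p = 2.27e-05). Pln, its inhibitor phospholamban, fell by 1.60 ± 0.16, and Hrc, a calcium-binding protein of the same store, by 1.73 ± 0.16. All 3 genes had groups that did not overlap. The sarcomere isoforms had 8 of 26 members lower and 4 higher, with a median of -0.26 that became 0.07 on FPKM without centring, and 5 fell and none rose with only the deepest Mfn2wt library kept. Of the sarcomere isoforms 2 rose without the fourth Mfn2AA, the first Mfn2wt or the third Mfn2wt library. In counts 46.2% of the sarcomere isoforms were called, near the 38.5% of all genes, so these counts are no result about the list. The list shares 8 genes with the ventricular markers. Tnni3, cardiac troponin I, fell by 1.37 ± 0.15.

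The integrated stress response, in which the factor ATF4 raises genes of amino acid and folate metabolism when translation is slowed, held genes that were higher than in the controls in both transgenic groups, and the genotypes differed in both directions. ATF4 binds with a C/EBP partner to a short element, written TTGCATCA here. That element was found on either strand in 7 of 33 promoters of the list (21.2%; 28 of 32 members matched, some with more than 1 start), against 294 of 32851 promoters of all genes (0.895%). A match describes the letters and does not show binding. The 4 promoters shown, from RefSeq on GRCm38.p6 and covering 250 bases before to 50 bases after the start, hold the element in capitals and belong to 2 genes that fell (Fgf21 and Chac1) and 2 that rose (Nupr1 and Atf3) in Mfn2AA relative to Mfn2wt hearts. They were picked to show both directions. Over all 7 genes with the element 3 fell, 2 rose and 2 were not called.
Fgf21: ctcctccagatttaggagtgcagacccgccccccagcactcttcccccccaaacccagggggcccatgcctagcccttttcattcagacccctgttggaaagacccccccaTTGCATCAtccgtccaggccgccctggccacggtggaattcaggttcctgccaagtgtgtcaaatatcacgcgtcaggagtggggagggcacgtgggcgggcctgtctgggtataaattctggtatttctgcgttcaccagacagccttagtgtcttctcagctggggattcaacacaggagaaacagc
Chac1: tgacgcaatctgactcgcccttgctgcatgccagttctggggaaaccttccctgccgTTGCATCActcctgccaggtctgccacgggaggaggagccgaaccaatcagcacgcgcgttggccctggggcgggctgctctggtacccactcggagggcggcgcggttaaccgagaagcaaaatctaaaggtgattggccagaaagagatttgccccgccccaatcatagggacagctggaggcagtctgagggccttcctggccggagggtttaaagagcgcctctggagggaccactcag
Nupr1: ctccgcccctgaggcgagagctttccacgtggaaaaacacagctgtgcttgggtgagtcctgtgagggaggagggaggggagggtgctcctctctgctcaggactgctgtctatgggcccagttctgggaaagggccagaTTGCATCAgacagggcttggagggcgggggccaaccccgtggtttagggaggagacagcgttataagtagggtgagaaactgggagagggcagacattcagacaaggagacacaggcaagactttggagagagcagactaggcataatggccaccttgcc
Atf3: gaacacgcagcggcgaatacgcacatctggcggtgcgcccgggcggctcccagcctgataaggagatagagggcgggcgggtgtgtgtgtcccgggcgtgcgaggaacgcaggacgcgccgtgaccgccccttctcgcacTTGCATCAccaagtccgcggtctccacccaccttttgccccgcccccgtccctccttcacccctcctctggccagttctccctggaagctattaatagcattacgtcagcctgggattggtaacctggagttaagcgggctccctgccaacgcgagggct

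The element starts 139 bases before the start of Fgf21 (chr7:45615441-45615740, minus strand), 193 bases before that of Chac1 (chr2:119350992-119351291, plus strand), and 110 bases before those of Nupr1 (chr7:126625421-126625720, minus strand) and Atf3 (chr1:191183284-191183583, minus strand). Of the 32 members of the list 17 fell and 4 rose in Mfn2AA relative to Mfn2wt hearts, with a median of -0.49. On FPKM without centring 10 fell and 8 rose (median -0.05), and on centred FPKM 19 fell and 4 rose (median -0.49). With only the deepest Mfn2wt library kept 11 fell and none rose. Nupr1, Atf3, Mthfd1l, Asns, Phgdh, Slc7a5, Pycr1, Slc7a11 and Gdf15 were chosen after their values were seen.

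Several members that fell were high in Mfn2wt hearts relative to the controls. Mthfd2, a folate enzyme of mitochondria (chr6:83305704-83317604, mm10, minus strand), had 6.72, 12.4, 9.22 and 11.7 CPM in Mfn2AA libraries, against 54.7, 66, 56.7 and 62.3 CPM in Mfn2wt libraries, 1.81 to 3.01 CPM in tetoff and 1.2 to 1.74 CPM in ntg libraries. Mfn2AA hearts therefore lay between Mfn2wt hearts and both controls with no overlap (-2.58 ± 0.19 against Mfn2wt, adjusted p = 2.98e-07; 2.04 against tetoff, adjusted p = 1.35e-05). Fgf21, a hormone released by muscle with mitochondrial stress, had 0.0921, 0.545, 0.0654 and 0 CPM in Mfn2AA libraries, against 5.76, 2.62, 3.76 and 3.01 CPM in Mfn2wt libraries. Of the 4 Mfn2AA values 3 were within the range of the tetoff and ntg libraries, 0 to 0.134 CPM, and at so few reads the fold against the controls is not given. Atf5, a factor of the mitochondrial unfolded protein response, had 174, 199, 121 and 118 CPM in Mfn2AA and 844, 572, 700 and 650 CPM in Mfn2wt libraries, against 109 to 209 CPM in tetoff libraries.

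**Figure D3:**
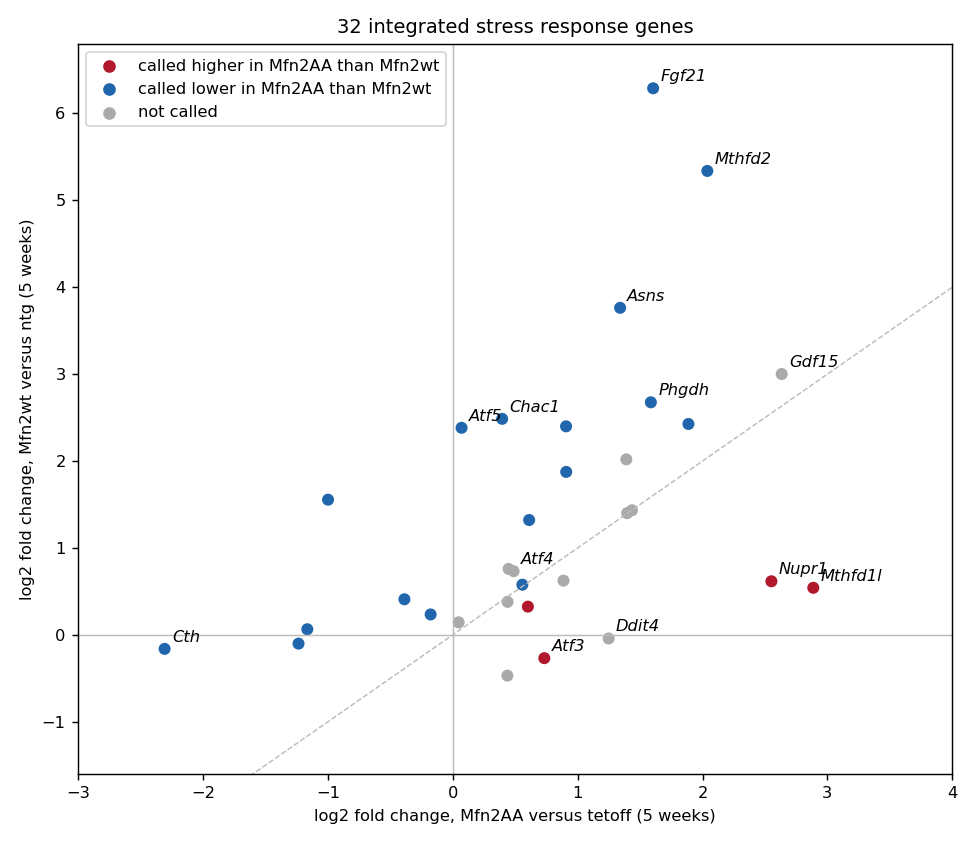
Log2 fold changes of the 32 integrated stress response genes at 5 weeks in Mfn2AA against tetoff hearts (horizontal) and in Mfn2wt against ntg hearts (vertical), 2 comparisons that share no library, with colour showing the call between Mfn2AA and Mfn2wt and a dashed line of equal change. Mthfd2 and Asns lie well above the line and Nupr1 and Mthfd1l well below it, while both positions of Fgf21 rest on controls near 0.

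Some genes of amino acid synthesis and import also lay between Mfn2wt hearts and the controls, and others did not differ between the genotypes by the test. Asns, which makes asparagine, had 1.84, 2.61, 2.65 and 3.5 CPM in Mfn2AA libraries, against 9.12, 15.8, 7.99 and 10.7 CPM in Mfn2wt libraries and 0.315 to 1.5 CPM in the 7 control libraries. Phgdh, the first enzyme of serine synthesis, had 11.1, 8.42, 6.05 and 8.48 CPM in Mfn2AA, 20.1, 18.8, 12.2 and 19.6 CPM in Mfn2wt and 1.76 to 3.9 CPM in control libraries. Slc7a5, a large neutral amino acid carrier, fell by 0.89 ± 0.15 relative to Mfn2wt hearts and rose by 1.89 relative to tetoff hearts. Pycr1, of proline synthesis (0.22 ± 0.21, adjusted p = 0.444), and Slc7a11, a cystine importer (0.19 ± 0.71, adjusted p = 0.866), were not called. Chac1, which degrades glutathione, was at 7.69, 4.28, 2.98 and 5.13 CPM in Mfn2AA and 35.5, 35, 40.6 and 26.6 CPM in Mfn2wt libraries, and it was not called against tetoff (0.39, adjusted p = 0.383). Not every fall was of this kind, and Cth, of cysteine synthesis, had 0.184, 0.145, 0.0981 and 0.148 CPM in Mfn2AA libraries, against 0.96, 2.22, 0.94 and 0.702 CPM in Mfn2wt and 0.437 to 2.14 CPM in control libraries.

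The 4 members that rose were Nupr1, Mthfd1l, Atf3 and Pck2, a mitochondrial enzyme also named after its values were seen. Nupr1, a small stress-induced nuclear protein, had 62.3, 32.9, 25.9 and 52.9 CPM in Mfn2AA libraries, against 16.8, 17.6, 13.8 and 16.1 CPM in Mfn2wt and 3.98 to 14.4 CPM in control libraries (1.43 ± 0.31 against Mfn2wt, adjusted p = 0.00182). Mthfd1l, another mitochondrial folate enzyme, had 12.9, 6.39, 6.74 and 10.3 CPM in Mfn2AA and 5.04, 4.24, 3.29 and 4.01 CPM in Mfn2wt libraries (1.14 ± 0.26). Both genes were higher in every Mfn2AA library than in any other 5-week library. Atf3, an early stress factor, rose by 1.46 ± 0.41. The mRNA of Atf4 itself missed the threshold (-0.34 ± 0.13, adjusted p = 0.0512). Gdf15, a stress hormone, had 8.66, 37.6, 33 and 12.3 CPM in Mfn2AA and 9.6, 9.24, 12.7 and 14.7 CPM in Mfn2wt libraries, overlapping and not called.

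The genotype difference was set beside that of the controls in a fit that subtracts tetoff minus ntg from Mfn2AA minus Mfn2wt. In that contrast 2388 genes were called (17.5%), 1203 higher (8.81%) and 1185 lower (8.67%). In the integrated stress response list 11 members were lower and 2 higher. Mthfd2 was lower by -3.30 (adjusted p = 7.08e-05), Atf5 by -2.31 (adjusted p = 0.000819), Chac1 by -2.09 (adjusted p = 0.00443) and Asns by -2.42 (adjusted p = 0.00722), and the higher members were Mthfd1l (2.35, adjusted p = 0.00169) and Nupr1 (1.94, adjusted p = 0.0104). Of the matrix genes 38 of 43 were called higher and of the oxidation genes 29 of 37 lower in this contrast. Other lists kept fewer calls, with 10 of 39 cell cycle genes higher (30 between the genotypes), 6 of 15 macrophage markers (14), 7 of 32 inflammation genes (18) and 1 of 32 interferon-stimulated genes (10). Of the 13 mitochondrially encoded genes 4 were lower (13 between the genotypes), of the 36 complex I subunits 19 (32) and of the 76 mitochondrial ribosome genes 30 (51). None of the 22 heat shock genes was called (9 lower between the genotypes), and the medians of the circadian clock and antioxidant genes turned to 0.15 each. Without the tetoff library that held transgene reads 1770 genes were called, 843 higher and 927 lower, with 34 matrix genes and 7 cell cycle genes higher, 2 macrophage markers higher, 28 oxidation genes lower, and 8 stress response members lower and 3 higher. In that setting 1 mitochondrially encoded gene, 18 complex I subunits and 21 mitochondrial ribosome genes were lower, and 6 inflammation genes were higher. The contrast assumes that the driver, present in tetoff hearts, differs between the transgenic lines as it does between the controls, which the labels do not state.

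Mfn2AA hearts were also set beside tetoff hearts and Mfn2wt hearts beside ntg hearts, although the labels do not say which control belongs to which line. Most Mfn2AA and tetoff libraries share a leading title number and no Mfn2wt and ntg libraries do, so the counts of calls in the 2 comparisons were not tested against each other. Mfn2AA hearts differed from tetoff hearts in 4781 genes (35%), 2584 higher (18.9%) and 2197 lower (16.1%). Mfn2wt hearts differed from ntg hearts in 53 genes (0.388%), 48 higher (0.351%) and 5 lower (0.0366%). Of the matrix genes 42 of 43 were higher in Mfn2AA than in tetoff hearts (median 2.48), and none was called between Mfn2wt and ntg hearts (median 0.11). Of the oxidation genes 33 of 37 were lower and 1 higher in Mfn2AA than in tetoff hearts (median -1.25), and none was called between Mfn2wt and ntg hearts (median -0.03). Of the 32 stress response members 16 were higher and 4 lower in Mfn2AA than in tetoff hearts, and 15 were higher and none lower in Mfn2wt than in ntg hearts. Mfn2AA against Mfn2wt and Mfn2AA against tetoff share the Mfn2AA libraries. The control groups themselves differed in 16 genes (0.117%), 8 in each direction (0.0586% each). Without the tetoff library that held transgene reads 3817 genes were called between Mfn2AA and tetoff hearts and 5 between tetoff and ntg hearts. Of the matrix genes 41 were then higher, of the oxidation genes 31 lower, and of the stress response members 15 higher and 4 lower in Mfn2AA than in tetoff hearts.

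**Figure D4:**
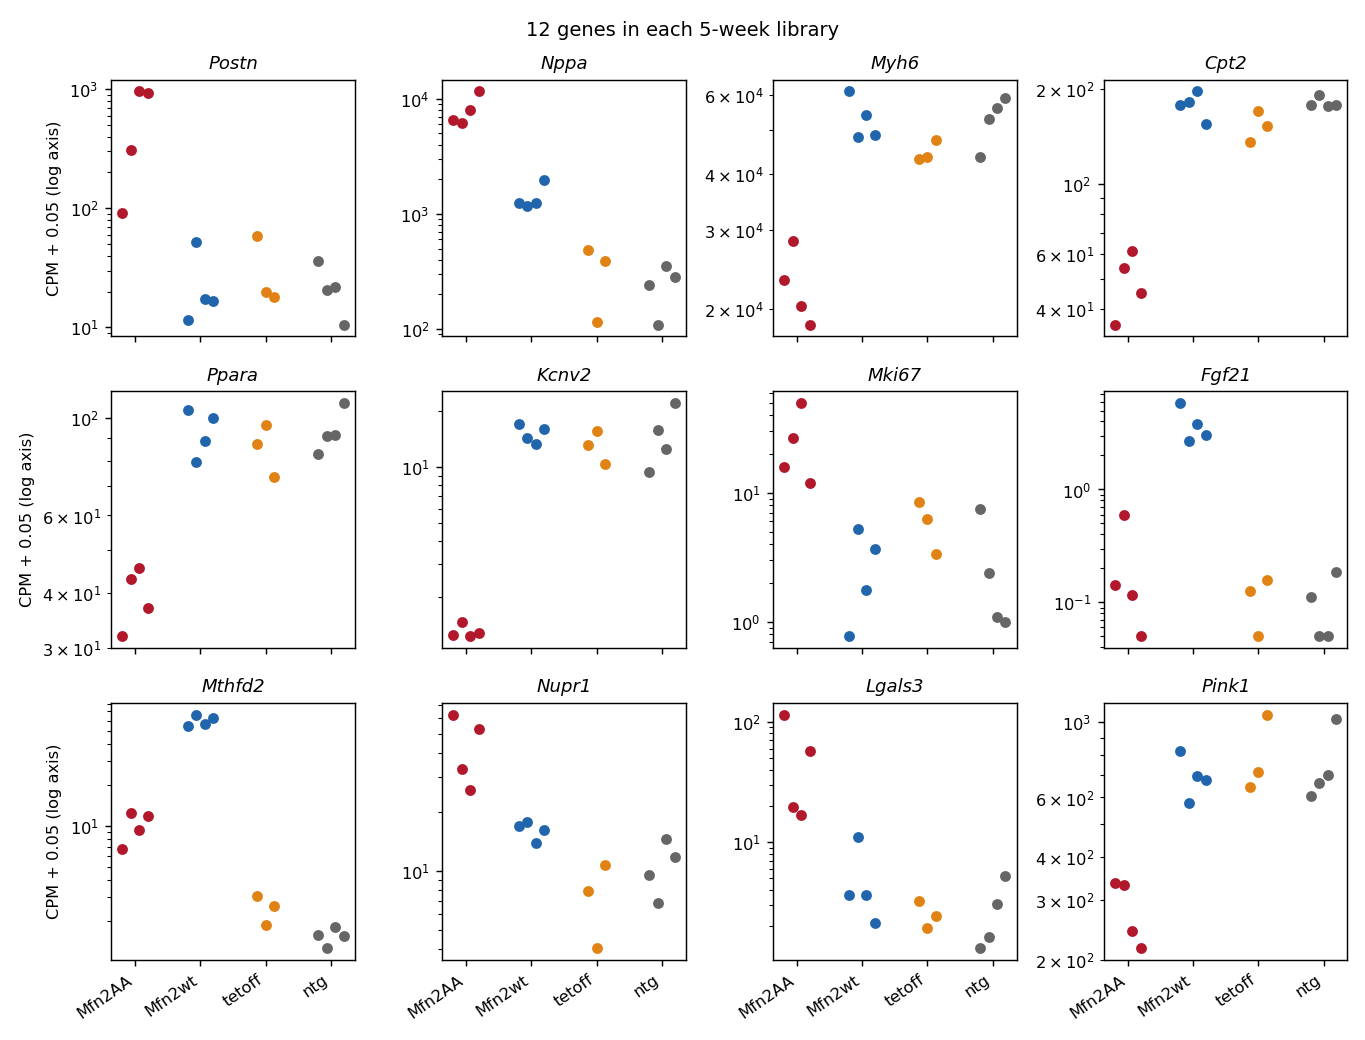
CPM plus 0.05 (log axis) of 12 genes in each 5-week library (1 point each), by group. Postn, Nppa, Mki67, Lgals3 and Nupr1 are high in Mfn2AA, Cpt2, Ppara, Myh6, Kcnv2 and Pink1 are low in Mfn2AA, and Fgf21 and Mthfd2 are high in Mfn2wt.

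Genes of the endoplasmic reticulum and its unfolded protein response rose more often than they fell, with 13 of 26 members higher and 4 lower (median 0.40), although with only the deepest Mfn2wt library kept 2 rose and 3 fell. Sdf2l1 (1.45 ± 0.33) and Creld2 (0.89 ± 0.16), chaperone-like secretory proteins, and Pdia4, a disulfide isomerase (0.86 ± 0.12), were among those that rose. Herpud1, of the degradation machinery at that membrane, fell by 1.61 ± 0.18, at 118, 98.1, 80.2 and 97.5 CPM in Mfn2AA and 356, 291, 252 and 299 CPM in Mfn2wt libraries. Cytosolic heat shock genes had 9 of 22 members lower and none higher, with a median of -0.31 that became 0.16 on FPKM without centring and none called there or with only the deepest Mfn2wt library kept. Without the first or the fourth Mfn2AA library 5 fell, and 4 fell without the third Mfn2wt library.

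Antioxidant genes split, with 4 of 27 members higher and 11 lower and a median of -0.20 that became 0.15 on FPKM without centring, and 1 was higher and 6 lower with only the deepest Mfn2wt library kept. The mitochondrial members Sod2, a superoxide dismutase (-1.22 ± 0.12), and Prdx3, a peroxiredoxin (-1.28 ± 0.25), fell, and the cytosolic and secreted glutathione peroxidases Gpx1 (1.07 ± 0.15) and Gpx3 (1.24 ± 0.24) rose. Hmox1, which degrades haem, had 850, 22.6, 19.8 and 43.7 CPM in Mfn2AA and 23, 81.2, 20.1 and 17.7 CPM in Mfn2wt libraries. Its call (2.68 ± 1.00, adjusted p = 0.045) rests on the first Mfn2AA library, without which the log2 fold change was -0.35 (adjusted p = 0.621). It was also lost without the first, the third or the fourth Mfn2wt library (2.46 to 2.54, adjusted p = 0.103 to 0.112).

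Cell cycle genes were higher in Mfn2AA hearts. Of 39 tested members 30 rose and 1 fell (median 1.52), and with only the deepest Mfn2wt library kept 7 rose and none fell. On centred FPKM 24 members rose and 1 fell (median 0.61). Mki67, a protein of dividing cells, had 15.8, 26.6, 49.6 and 11.8 CPM in Mfn2AA libraries, against 0.72, 5.16, 1.72 and 3.61 CPM in Mfn2wt libraries. Each Mfn2AA library was above each Mfn2wt library, and the fourth Mfn2AA library was the lowest of its group (3.02 ± 0.63, adjusted p = 0.00156). Cdk1, the kinase of mitotic entry, rose by 2.82 ± 0.49 and Bub1b, of the spindle checkpoint, by 2.70 ± 0.37. Cell division was not measured, nor which cells held these transcripts. Markers of macrophages, fibroblasts and lymphocytes were higher in the same libraries, and their part in the cell cycle result was not tested.

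Factors of the E2F family bind near the start of replication genes, at elements written here as TTTCCCGC or TTTGGCGC. Either was found on either strand in 7 of 38 promoters of the cell cycle list (18.4%; 33 of 42 members matched), against 514 of 32851 promoters of all genes (1.56%). Among the genes with either element Cdk2 was not called (0.36, edgeR adjusted p = 0.342) and Cdkn2a was not tested, while the others rose. The promoters of 2 subunits of the replicative helicase, again from RefSeq on GRCm38.p6, are shown with the element in capitals because both genes were lower at P21 and higher at 5 weeks in Mfn2AA hearts. Mcm6 (chr1:128359656-128359955, minus strand) holds it 110 and 47 bases before the start, and Mcm5 (chr8:75109259-75109558, plus strand) 149 bases before it, on the opposite strand.
Mcm6: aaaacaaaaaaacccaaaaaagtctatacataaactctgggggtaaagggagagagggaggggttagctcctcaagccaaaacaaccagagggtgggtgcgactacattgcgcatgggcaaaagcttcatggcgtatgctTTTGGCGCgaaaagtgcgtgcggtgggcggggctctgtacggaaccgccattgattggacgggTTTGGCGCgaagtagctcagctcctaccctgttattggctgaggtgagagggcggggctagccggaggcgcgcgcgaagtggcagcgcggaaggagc
Mcm5: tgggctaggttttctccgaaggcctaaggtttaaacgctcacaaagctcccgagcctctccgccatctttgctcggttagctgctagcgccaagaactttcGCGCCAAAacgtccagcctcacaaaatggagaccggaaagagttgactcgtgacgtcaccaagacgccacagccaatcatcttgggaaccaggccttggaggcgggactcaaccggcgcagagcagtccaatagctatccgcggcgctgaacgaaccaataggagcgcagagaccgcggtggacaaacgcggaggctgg

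Mcm6, chosen after its values were seen, had 8.1, 10.1, 10.4 and 3.5 CPM in Mfn2AA libraries, against 2.64, 2.26, 3.45 and 3.01 CPM in Mfn2wt libraries (1.52 ± 0.32, adjusted p = 0.00163). Mcm5, likewise chosen, had 19.3, 19.9, 18.9 and 9.91 CPM in Mfn2AA and 5.04, 6.15, 5.64 and 9.72 CPM in Mfn2wt libraries (1.34 ± 0.26). In both genes the groups were separate by a small margin, with the fourth Mfn2AA library the lowest of its group.

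Macrophage markers, and some lymphocyte markers, rose with the matrix genes. Of 15 macrophage markers 14 were called higher and none lower (median 1.5), and the summed level was 765 to 2377 CPM in Mfn2AA libraries, against 443.6 to 587.5 CPM in Mfn2wt libraries, with none of the markers at 0. None of the 15 was called with only the deepest Mfn2wt library kept, which had the highest Mfn2wt sum, although the median was then 1.24. Lgals3 (galectin 3) had 114, 19.6, 16.8 and 57 CPM in Mfn2AA and 3.6, 11, 3.6 and 2.1 CPM in Mfn2wt libraries (3.22 ± 0.64, adjusted p = 0.000988). Mpeg1, a pore-forming protein of phagocytes, rose by 2.02 ± 0.47. Of 7 tested lymphocyte markers 4 rose (57.1%, beside 38.5% of all genes called) and none fell (median 1.30). Cd4 (1.89 ± 0.25) was among them, while 5 others were too low to test. On centred FPKM 2 of the 7 lymphocyte markers rose (median 0.38). Of 4 tested neutrophil markers 1 rose (25%), below the share of all genes, so this count is no result about the list. Leaving out 1 library at a time, the neutrophil median ran from -0.5 to 2.32. The marker that rose was Csf3r (2.57 ± 0.72), at 48.5 CPM in the first Mfn2AA library and 4.05 to 7.79 CPM in the other Mfn2AA libraries. Without the first Mfn2AA library Csf3r was not called (1.06, adjusted p = 0.0582).

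Inflammation genes rose beside them. Of 32 inflammation and chemokine genes 18 rose and 2 fell (median 1.24), with Nlrp3, the inflammasome sensor, up by 1.93 ± 0.38 and Ccl11, which attracts eosinophils, down at -2.19 ± 0.46. On centred FPKM 11 rose and 2 fell (median 0.59). Without the fourth Mfn2AA library 11 rose, and 3 rose and 1 fell with only the deepest Mfn2wt library kept. Lysosome genes had 16 of 31 higher and 2 lower (median 0.45; 3 higher and 1 lower with only the deepest Mfn2wt library kept), with the phagocyte protease gene Ctss at 141, 43.4, 44.4 and 102 CPM in Mfn2AA and 11.5, 23.5, 9.71 and 12.5 CPM in Mfn2wt libraries. The part of macrophages in the lysosome result was not tested.

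Immediate early genes, whose mRNA answers growth signals within minutes, had 20 of 26 members higher and none lower (median 0.98; 4 higher with only the deepest Mfn2wt library kept). Egr2, a zinc finger factor (chr10:67537869-67542188, mm10, plus strand), had 6.35, 21.2, 18.8 and 14.2 CPM in Mfn2AA libraries, against 1.2, 0.833, 0.157 and 0.902 CPM in Mfn2wt libraries (4.28 ± 0.52, adjusted p = 1.86e-05). Fos rose by 2.63 ± 0.65, with 10.3 to 22.1 CPM in Mfn2AA and 1.1 to 5.33 CPM in Mfn2wt libraries. Against tetoff hearts 8 members were called higher. The Mfn2wt median against ntg was -0.46 with no member called.

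Apoptosis and p53 genes had 13 of 30 members higher and 3 lower (median 0.47; 2 in each direction with only the deepest Mfn2wt library kept). Phlda3, a p53 target that restrains AKT, rose by 2.05 ± 0.22, Ripk3, a kinase of necroptosis, by 1.41 ± 0.27, and Gadd45a, a DNA damage gene, fell by 1.69 ± 0.17.

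In several pathway lists, the heat shock genes above (40.9%) among them, the share of called members was close to or below the 38.5% of all genes, and these counts are no result about the lists. Interferon-stimulated genes had 10 of 32 members higher and none lower (31.2%; median 0.64), among them Zbp1 (1.48 ± 0.43), a sensor of nucleic acids. Without the third Mfn2AA library 6 were higher, without the third Mfn2wt library 5, and with only the deepest Mfn2wt library kept 1. On centred FPKM 6 interferon-stimulated genes were higher and none lower (median 0.18). The median level of that list in the first Mfn2AA library (-0.085 against the ntg mean on the log2 scale) was within the Mfn2wt range of -0.11 to 0.109. Hypoxia and angiogenesis genes had 5 of 28 higher and 6 lower (39.3%; median 0.17; none higher and 2 lower with only the deepest Mfn2wt library kept), with the vessel regulators Angpt2 up by 1.43 ± 0.37 and Angpt1 at -1.61 ± 0.48, a call lost without the second Mfn2wt library (-1.12, adjusted p = 0.0931). Sterol and fatty acid synthesis had 7 of 28 higher and 3 lower (35.7%; median 0.33; 4 higher and 2 lower in the same setting), with the cholesterol gene Sqle (2.75 ± 0.36) higher and the triglyceride genes Dgat2 (-2.13 ± 0.15) and Gpam (-1.55 ± 0.16) lower. On FPKM without centring 12 hypoxia and 13 sterol genes were higher.

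Ubiquitin ligases and proteasome genes of muscle had 2 of 27 members higher and 8 lower (37%; median -0.11, which became 0.26 on FPKM without centring), with Fbxo31, an F-box protein, at -1.43 ± 0.15 and the immunoproteasome gene Psmb8 at 0.91 ± 0.12. Cytosolic ribosomal proteins had 1 of 49 higher, Rpl3 (0.86 ± 0.14), and 1 lower, Rps2 (-0.42 ± 0.10; 4.08% called), with a median of -0.01 that became 0.40 on FPKM without centring. The circadian clock had 2 of 20 higher and 8 lower (50% called; median -0.23, which became 0.10 on FPKM without centring), with the output factor Hlf at -1.05 ± 0.12. Clock genes also differed between the controls, where tetoff hearts had 1 member higher and 5 lower than ntg hearts (1 higher and 2 lower without the tetoff library that held transgene reads), and the hour of collection is not in the labels.

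Markers of other cells that an apical sample could hold were called at shares close to or below the 38.5% of all genes. These counts are no result about the lists. The shares were 16.7% of endothelial, 41.7% of smooth muscle and pericyte and 44.4% of Schwann and neural markers. They were 33.3% each of skeletal muscle and adipocyte and 12.5% of epicardial markers. Endothelial markers had 1 of 12 higher, Pecam1 (0.40 ± 0.15), and 1 lower, Flt1 (-0.52 ± 0.12). The call of Pecam1 was lost without any 1 of 3 Mfn2AA libraries (all but the first) or of 3 Mfn2wt libraries (all but the second), with adjusted p of 0.0513 to 0.107. Smooth muscle and pericyte markers had 3 of 12 higher and 2 lower (median 0.19). Schwann and neural markers had 4 of 9 higher and none lower, among them Ncam1, an adhesion protein, at 60.8, 61.8, 38.5 and 91 CPM in Mfn2AA and 11.3, 15.4, 10.2 and 9.22 CPM in Mfn2wt libraries (2.43 ± 0.25), and 2 were higher without the fourth Mfn2AA library. Skeletal muscle markers had 1 of 9 higher and 2 lower, adipocyte markers 2 of 9 higher and 1 lower, epicardial markers none of 8 higher and 1 lower, and none of the 3 tested erythroid markers was called. The globin genes Hbb-b1, Hbb-b2, Hba-a1 and Hba-a2 had no read in any library of either group.

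Of the atrial markers called between the transgenic groups, all but Nppa were lower in Mfn2AA hearts, and Nppa is also on the list of cardiac stress genes. Of 13 markers 1 was higher (Nppa) and 5 were lower in Mfn2AA than in Mfn2wt hearts (median -1.11). That is 46.2% called, beside 38.5% of all genes. Without overlap 3 of the 13 were lower, beside 16.5% of all tested genes. Between Mfn2wt and ntg hearts 3 were higher in Mfn2wt (median 1.63). Between Mfn2AA and tetoff hearts 2 were higher and 1 lower in Mfn2AA (median 1.57). After subtracting the controls 1 was higher and 1 lower (median 0.15). Without the tetoff library that held transgene reads the last 2 medians were 1.26 and -0.03. Without the fourth Mfn2AA library 9 were lower in Mfn2AA than in Mfn2wt hearts. The summed level was 6423 to 12700 CPM in Mfn2AA and 1789 to 3393 CPM in Mfn2wt libraries, and most of it was Nppa. Bmp10, a growth factor of the atrial wall, had 0, 4.83, 0.425 and 0 CPM in Mfn2AA and 74.6, 50.5, 79.6 and 4.61 CPM in Mfn2wt libraries, with the lowest Mfn2wt value just under the highest of Mfn2AA (-5.23 ± 1.05, adjusted p = 0.00111). Myl7, the atrial light chain, was not called (-2.17 ± 1.03, adjusted p = 0.112). The part of atrial tissue in these results was not tested.

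Among the largest changes that no list held were genes of matrix, hormone and carbohydrate biology. Cilp, a matrix protein of cartilage and fibroblasts (chr9:65265180-65280605, mm10, plus strand), had 78.2, 277, 278 and 288 CPM in Mfn2AA libraries, against 4.32, 9.04, 7.36 and 9.22 CPM in Mfn2wt libraries (4.88 ± 0.47, adjusted p = 3.07e-06). Dio2, the deiodinase that activates thyroid hormone, rose by 4.30 ± 0.50, with 6.26 to 32.4 CPM in Mfn2AA and 0.48 to 1.47 CPM in Mfn2wt libraries. Among the falls were Fbp2, the muscle fructose bisphosphatase (-3.35 ± 0.23), Penk, the precursor of enkephalin (-3.55 ± 0.60), and Efnb3, an ephrin ligand (-2.88 ± 0.20). In all 5 genes the groups did not overlap.

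Fewer genes were called at P21 than at 5 weeks. In a joint fit of both ages 1087 genes were called between the 2 genotypes at P21 (7.67%), 652 higher (4.6%) and 435 lower (3.07%). The difference itself changed with age in 4856 of 14174 genes (34.3%), with 2415 higher (17%) and 2441 lower (17.2%) at 5 weeks than at P21. Libraries of each age were prepared together, so age and library batch cannot be told apart where the batch acts unequally on the genotypes. Of the 543 genes called at both ages 313 had the same sign and 230 the opposite sign.

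The lists divide by how they changed with age. Matrix genes at P21 had 6 members higher and 2 lower (median -0.00), and for the change 39 of 43 were called higher and 1 lower. Oxidation genes had 5 lower at P21 (median -0.17) and 31 of 37 called lower for the change, and ventricular markers had 2 of 12 lower at P21. Pink1 changed by -1.67 between the ages (adjusted p = 5.73e-07) and was not called at P21 (0.35, adjusted p = 0.12). The mitochondrially encoded genes had 5 of 13 lower at P21 (median -0.86) and 5 of 13 called for a further fall. In the integrated stress response list 12 members were lower and 1 higher at P21, and Mthfd2 differed there by -2.39 (adjusted p = 4.16e-08), with no call for a change by 5 weeks (-0.21, adjusted p = 0.696).

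**Figure D5:**
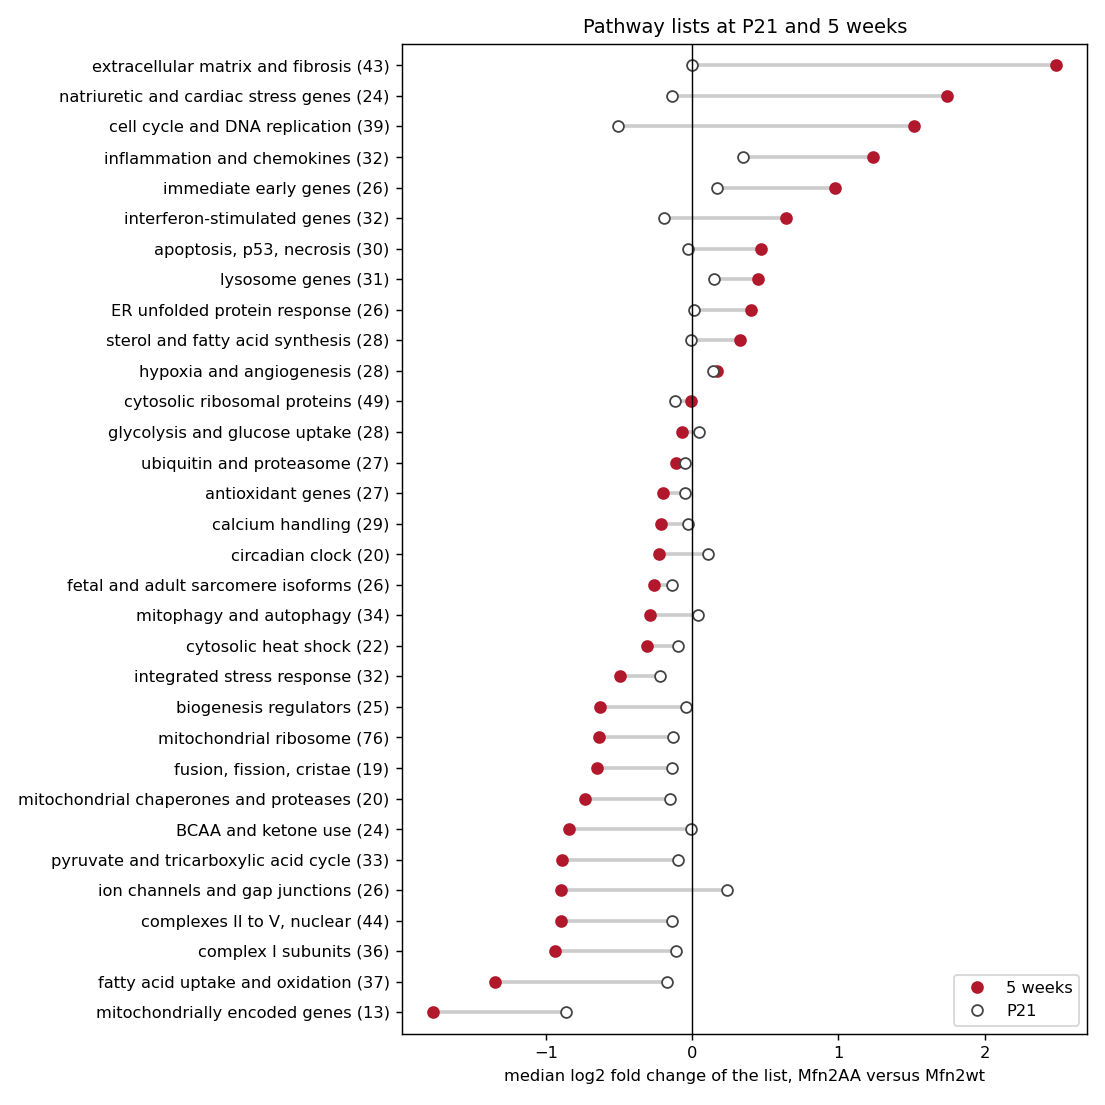
Median log2 fold change of the 32 pathway lists between Mfn2AA and Mfn2wt hearts, with filled points for 5 weeks (fit of that age) and open points for P21 (joint fit) and the number of members tested in brackets. Matrix genes lie at 2.49 at 5 weeks and at -0.00 at P21, fatty acid oxidation genes at -1.35 and -0.17, and cell cycle genes at 1.52 and -0.51.

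Cell cycle genes crossed from lower to higher. At P21 none of 39 was higher and 12 were lower in Mfn2AA hearts (median -0.51), and for the change 31 were called higher (median 2.26). Mcm6 differed by -1.45 at P21 (adjusted p = 0.00068) and by 2.97 more at 5 weeks than at P21 (adjusted p = 2.46e-06). Nppb behaved alike, with -1.06 at P21 (adjusted p = 0.0282) and a change of 3.66 (adjusted p = 6.91e-07). Ion channels had 6 members higher and 1 lower at P21 (median 0.24) and, for the change, 2 of 26 called higher and 19 lower. Among the genes with the largest change between the ages were Cilp (5.22) and Kcnv2 (-3.82), neither called at P21 (adjusted p = 0.601 for Cilp and 0.51 for Kcnv2). Atrial markers had 4 of 13 higher at P21 (median 1.97) and adipocyte markers 4 higher (median 3.58), and the part of atrial and fat tissue in the change with age was not tested.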

How the data were processed

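Polyadenylated RNA from ventricular apexes was sequenced single-end by the authors, without strand information, per the labels' protocols. TopHat2 2.0.10, Bowtie2, HTSeq, Cufflinks 2.1, DESeq and edgeR are named in the submitters' processing notes, with build mm10. The authors deposited raw HTSeq read counts per gene, FPKM values, and the annotation they counted against, used here for gene positions (start and end in bases, as deposited). Counts of the 15 5-week libraries were fitted here with edgeR 4.0.16 (R 4.3.3) after TMM scaling and its filter on low counts, in 1 quasi-likelihood model of the 4 groups. The p-values of the gene fits were adjusted by the Benjamini-Hochberg method over all tested genes, and CPM values are TMM-scaled. P21 and 5-week libraries of the 4 genotypes were fitted jointly, with the age change as an interaction. The FPKM of the transgene, Mfn2, Pink1 and Park2 and the library measures were compared by two-sided exact permutation tests, which with 4 against 4 cannot go below p = 0.0286. The permutation p-values given are unadjusted unless an adjusted value is named.

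Total counts ran from 7396727 to 23732780 per library, so genes near 1 CPM rest on few reads, and folds at such levels are imprecise. Named genes were Mfn2, Mfn1, Pink1, Park2, up to 5 called members of largest change and up to 2 uncalled members of highest level per list, the 12 largest rises and falls of at least 5 CPM without overlap, and the 8 largest age differences in each direction, of which the text gives a selection. Genes and lists were chosen with earlier results of these data known. The alternatives were DESeq2 1.42.0, limma 3.58.1 on log2(FPKM + 1) and (FPKM + 0.1), RLE scaling, no filter on low counts, thinning, a GC correction, Rn45s as a covariate or left out, and leaving out libraries. Centring FPKM on the median gene, and leaving out the tetoff library with the highest transgene FPKM, were added after the data were seen. The edgeR and DESeq2 fits were also run on simulated counts in which few genes changed, evenly in both directions. Such counts cannot test the scaling of data in which many genes were called. Lists were described by counts and medians, with no test of the list.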

Additional observations from a re-analysis of the deposited data

Results flagged for a closer look

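In groups of 4 libraries 1 value was set apart from the other 3 beyond Dixon's 95% critical value in 40 of 531 groups of values examined, where chance gives about 1 in 20, or 26.6. Their causes were not tested.

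The first Mfn2AA library stood apart from the other 3 Mfn2AA libraries, high for Hmox1 (850 CPM), Ucp2 (1160 CPM), Angpt2 (26.8 CPM) and Csf3r (48.5 CPM) and for the neutrophil markers (2.94 above the ntg mean on the log2 scale). The same library was low for Cilp (78.2 CPM) and Atf3 (4.97 CPM). The second Mfn2AA library was high for Bmp10 (4.83 CPM) and Fgf21 (0.545 CPM). Other single Mfn2AA values that stood apart were those of Gadd45a (2.78 CPM), Mcm5 (9.91 CPM) and Tnnt2 (7090 CPM).

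The second Mfn2wt library, the deepest, was high for the matrix genes Postn (51.9 CPM), Ltbp2 (23.4 CPM) and Col12a1 (7.02 CPM), for Lgals3 (11 CPM), Hmox1 (81.2 CPM) and Cth (2.22 CPM). All these matrix values were still below the lowest Mfn2AA value. Nppa (1960 CPM) was high in the fourth Mfn2wt library and Phgdh (12.2 CPM) low in the third Mfn2wt library. The second Mfn2wt library was also high for Pecam1 (152 CPM), and in list level for the neutrophil markers (0.666) and the smooth muscle markers (0.087).

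Among ntg libraries single values stood apart for Acta1 (2360 CPM), Atf5 (198 CPM), Cpt2 (191 CPM), Egr2 (5.11 CPM), Hmox1 (29.3 CPM), Mfn1 (71.7 CPM), Nmrk2 (12.9 CPM), Rps2 (572 CPM), Sod2 (634 CPM) and Ucp2 (286 CPM). The number of genes with a read (15300) and the transgene (20 FPKM) each had 1 separate ntg library. The list levels against the ntg mean did so for complex I (-0.136), sarcomere isoforms (0.081), apoptosis genes (-0.136), cytosolic ribosomal proteins (-0.127) and Schwann markers (0.61).

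The genotype difference was not the same at the 2 ages in 4856 genes by edgeR's test of the interaction. Among the genes named, the log2 difference at 5 weeks less that at P21 was 5.22 for Cilp, 4.99 for Postn, 4.49 for Dio2 and 4.35 for Egr2. It was -9.01 for Bmp10, which had no read in 2 of the Mfn2AA libraries at 5 weeks, -4.13 for Penk and -3.82 for Kcnv2.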

How the results depend on the processing

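Across 22 alternative settings, 827 of 989 recomputed median log2 fold changes of 45 lists differed from the reported median by less than the SD between libraries. The other 162 moved further. That SD was of the list level between libraries of a group, pooled over Mfn2AA and Mfn2wt. Of 2757 recomputed fold changes of 126 named genes 2629 kept direction and call. With only the deepest Mfn2wt library kept, 1555 genes were called between Mfn2AA and Mfn2wt, 9 between Mfn2wt and ntg, 8 between tetoff and ntg, 257 after subtracting the controls and 2640 for the change with age. This setting leaves 1 Mfn2wt library and so fewer degrees of freedom. Leaving out 1 library at a time gave 4437 to 5089 genes between Mfn2AA and Mfn2wt, 3817 to 4798 between Mfn2AA and tetoff (3817 without the tetoff library that held transgene reads), 32 to 66 between Mfn2wt and ntg (32 without the first Mfn2wt library and 35 without the fourth Mfn2wt library), 5 to 19 between tetoff and ntg (5 without that tetoff library), 1765 to 2532 after subtracting the controls and 4319 to 4923 for the change with age.

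With the Rn45s share as covariate 3935 genes were called between Mfn2AA and Mfn2wt, beside 5257 without it. After subtracting the controls 1737 were called with that covariate, beside 2388. Between Mfn2wt and ntg DESeq2 called 118 genes, limma on log2(FPKM + 1) 34, limma on log2(FPKM + 0.1) 32, and the Rn45s covariate 20. Between tetoff and ntg DESeq2 called 64, limma without a filter 10 and the GC correction 25. The cause of these moves was not tested. The share of calls that were higher depended on the scaling. Between Mfn2AA and tetoff it was 54% in counts, 76.3% on FPKM and 40.3% on centred FPKM. After subtracting the controls it was 50.4%, 85.9% and 35.9% in the same 3 settings, and for the change with age 49.7%, 81.3% and 37.4%. Centred FPKM was chosen after seeing the data.

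Leaving out 1 library at a time, the log2 FPKM difference Mfn2AA minus Mfn2wt ran from -1.79 to -1.35 for the transgene, from -0.43 to -0.25 for Mfn2, from -0.98 to -0.79 for Pink1 and from -0.22 to -0.06 for Park2. The difference in Rn45s share ran from -14.2 to -4.94 percentage points, in mitochondrial mRNA share from -3.36 to -2.24 percentage points, in total counts from 7064000 to 12410000 and in genes with a read from 999.8 to 1635, the largest of the last 3 without the second Mfn2wt library. Among genes not called, limma on FPKM (+ 1 with or without a filter) turned the sign of Actc1 (0.0581), Atf4 (0.0655), Myh7 (-0.22), Timp3 (0.24) and Tnnt2 (0.0823), and with FPKM + 0.1 these were at 0.0581, 0.0669, -0.22, 0.25 and 0.0823 in the same order. Myh7 was at -0.65 on centred FPKM (limma adjusted p = 0.0418), Timp3 at 0.0752 with the Rn45s covariate, Pycr1 at -0.0694 on centred FPKM and Slc7a11 at -0.0654 with only the deepest Mfn2wt library kept. Leaving out 1 library at a time gave -0.27 to 0.00891 for Timp3, -0.0391 to 0.23 for Sqstm1, -0.26 to 0.48 for Slc7a11 and -0.35 to 3.54 for Hmox1, the 1 called gene to change sign, which did so without the first Mfn2AA library. No paired analysis was possible because Mfn2AA and Mfn2wt libraries share no title number.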
